A study of Mus musculus with 8 samples.

Results

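The small leucine-rich proteoglycans are a family of secreted matrix proteins, and 9 of their genes, Dcn, Lum, Bgn, Fmod, Ogn, Aspn, Prelp, Omd and Podn, were followed here by name in the mouse ventral prostate. All 9 were among the 36333 genes listed, and 8 of them were among the 13080 genes with enough transcript to be tested. RNA came from the ventral lobes of 4 hSKP2-KI and 4 WT male mice on the FVB/N background, all 12 months old, with 1 library per mouse. The hSKP2-KI mice carried a human SKP2 coding sequence inserted by CRISPR/Cas9 in exon 1 of the endogenous probasin gene (Pbsn), so that its expression was driven by the Pbsn promoter, which is active in prostate epithelium, whereas WT mice carried no insert. Which of the founder lines was sequenced is not given in the sources used here. Values are TPM, a measure corrected for the length of the transcript and scaled to a sum of 1000000 in each library, so levels can be compared between genes but the read depth behind them is unknown.

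Each of these proteins has a core of leucine-rich repeats that folds into a curved solenoid, and most carry chondroitin, dermatan or keratan sulfate chains. They bind collagen fibrils and set fibril width and spacing, and several also hold growth factors such as TGF-beta in the matrix. In the prostate the matrix they belong to lies in the stroma around the glands and is laid down mainly by fibroblasts and smooth muscle cells.

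The genotypes were apart in every library at the mouse genes Skp2 and Pbsn. Skp2 (Entrez 27401) was listed at 37.3 to 60.6 TPM in hSKP2-KI and 1.05 to 2.27 TPM in WT prostates. Pbsn was at 93.0 to 174 TPM against 3980 to 9232 TPM. Reads were mapped to the mouse genome, so the Skp2 value is not a direct measure of the human insert. The epithelial and smooth muscle markers of the tissue were present in all 8 libraries, with summed levels of at least 2053 and 2434 TPM. The secretory genes Sbp, Spink1 and Sbpl took 32.9% ± 1.01 of all TPM in hSKP2-KI libraries against 43.1% ± 2.48 in WT libraries (SD, n = 4 each), and the tested genes as a whole had a median log2 fold change of 0.23 rather than 0. Differences of log2(TPM + 1) below are therefore also given after median-ratio scaling, which multiplies each library by 1 factor so that the typical gene is level between libraries and brings that median to -0.01. In these bulk samples more cells of a type and more RNA per cell cannot be told apart.

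Decorin (Dcn), which binds type I collagen and TGF-beta, was by far the most abundant of the 9 transcripts. Its share of their summed TPM was 63.3% ± 1.46 in WT and 62.0% ± 1.79 in hSKP2-KI libraries (SD, n = 4 each). In WT prostates the order of mean levels was Dcn at 346 TPM, Bgn at 85.0 TPM, Prelp at 54.0 TPM, Ogn at 36.7 TPM, Fmod at 9.85 TPM, Podn at 6.08 TPM, Lum at 5.91 TPM, Aspn at 3.64 TPM and Omd at 0.287 TPM. The first 4 were separated from each other in all WT mice, as was Aspn from Omd. Ogn and Fmod, Fmod and Podn, Podn and Lum, and Lum and Aspn overlapped as neighbours in that order. In hSKP2-KI prostates the order became Dcn at 636 TPM, Bgn at 156 TPM, Prelp at 75.5 TPM, Ogn at 66.2 TPM, Fmod at 54.5 TPM, Lum at 23.2 TPM, Aspn at 8.36 TPM, Podn at 8.30 TPM and Omd at 0.471 TPM. There Fmod had come up beside Ogn and Prelp, with overlap between Prelp and Ogn and between Ogn and Fmod, while Fmod was separated from Lum and Lum from Aspn. Aspn and Podn overlapped, and Podn was separated from Omd.

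**Figure D1:**
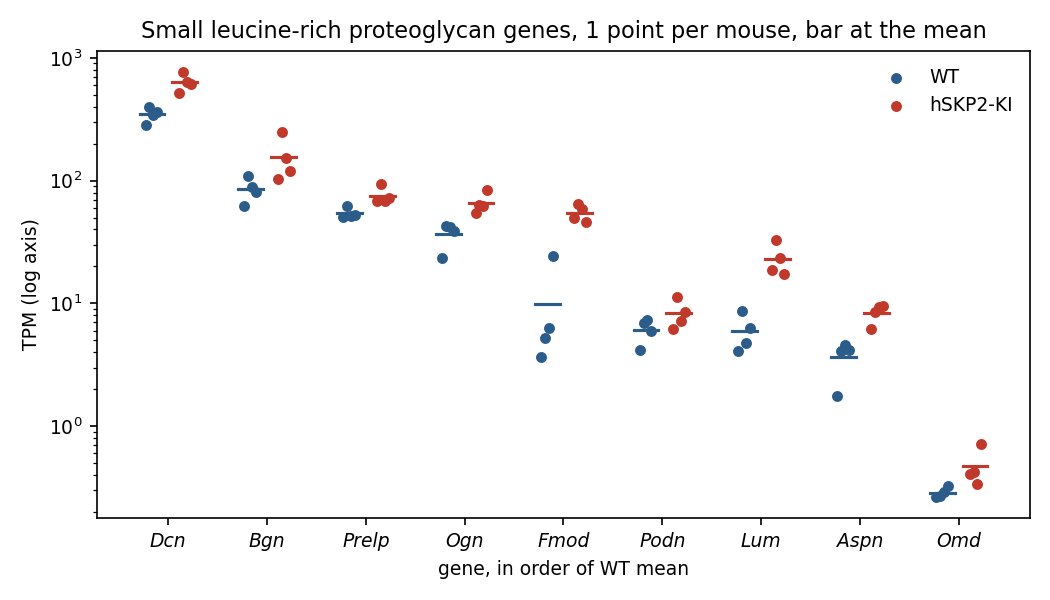
TPM of the 9 genes on a log axis, 1 point per mouse (blue WT, red hSKP2-KI) with a bar at the mean of each genotype, ordered by WT mean. The red points lie above all blue points for every gene except Bgn and Podn, and 1 WT mouse stands above the others for Fmod at 24.3 TPM.

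Summed over the 9 genes, the libraries held 825 to 1292 TPM in hSKP2-KI and 435 to 636 TPM in WT prostates, without overlap. Of the 8 tested genes, 7 were higher in hSKP2-KI prostates at an adjusted p under 0.05 (limma with Benjamini-Hochberg adjustment over all 13080 genes) and 0 were lower, where 32.7% of all tested genes were called higher and 1.23% lower. The median log2 fold change of the 8 was 0.86. After median-ratio scaling 5 of the 8 (Dcn, Lum, Fmod, Ogn and Aspn) were higher, against 6.92% of all tested genes, and 0 were lower, against 4.25%, and their median was 0.60. Quantile normalization, and rescaling without the 20 most abundant genes, each left 4 of the 8 (Dcn, Lum, Fmod and Aspn), against 5.51% and 6.79% of tested genes. All 8 had at least 1 TPM in every library, so none passed the filter through the higher genotype alone. Every hSKP2-KI mouse was above every WT mouse for 6 of the 8 with the deposited TPM, against 34.0% of tested genes, and for 5 of the 8 after median-ratio scaling, against 10.3%.

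Fibromodulin (Fmod, Entrez 14264, GRCm38 chr1:134037254-134048280, plus strand), a keratan sulfate proteoglycan that binds collagen and steers its crosslinking, differed most. It stood at 49.9, 64.0, 58.3 and 45.6 TPM in hSKP2-KI replicates 1 to 4 and at 3.63, 5.19, 6.28 and 24.3 TPM in WT replicates 1 to 4. WT replicate 4 lay far above the other WT mice but below every hSKP2-KI mouse. The log2 fold change was 2.69 (standard error 0.41, 95% interval 1.78 to 3.60, adjusted p = 0.00210 by limma). Without WT replicate 4 it was 3.21, and the mean of the other 3 WT mice was 5.03 ± 1.33 TPM (SD, n = 3). After median-ratio scaling the log2 fold change was 2.44 (adjusted p = 0.00875 by limma). Of the summed TPM of the 9 genes, Fmod made up 5.35% ± 0.644 in hSKP2-KI and 1.76% ± 1.66 in WT libraries (SD, n = 4 each), with 4.24% in WT replicate 4. In that mouse none of the other 8 genes stood apart from the WT group in the same way, and Skp2 was 2.27 TPM.

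Lumican (Lum, Entrez 17022, chr10:97565501-97572703, plus strand), which shares a binding region on collagen with fibromodulin and is needed for regular fibril spacing, was the next. It stood at 18.9, 32.9, 23.6 and 17.2 TPM in hSKP2-KI replicates 1 to 4 and at 4.07, 8.59, 4.72 and 6.28 TPM in WT replicates 1 to 4. The lowest hSKP2-KI mouse was above the highest WT mouse, and the log2 fold change was 1.81 (standard error 0.22, 95% interval 1.31 to 2.30, adjusted p = 0.000844 by limma), and 1.56 after median-ratio scaling (adjusted p = 0.00331 by limma).

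Among the class I members, which have dermatan or chondroitin sulfate chains in decorin and biglycan and none in asporin, Dcn (Entrez 13179, chr10:97479500-97518163, plus strand) stood at 519, 768, 638 and 618 TPM in hSKP2-KI replicates 1 to 4 and at 285, 398, 342 and 359 TPM in WT replicates 1 to 4. The groups did not overlap, and the log2 fold change was 0.87 (standard error 0.13, 95% interval 0.59 to 1.16, adjusted p = 0.00186 by limma), or 0.60 after median-ratio scaling (adjusted p = 0.0109 by limma). Biglycan (Bgn, Entrez 12111, chrX:73483601-73495936, plus strand), which can also signal through Toll-like receptors when it is released from the matrix, stood at 103, 250, 152 and 120 TPM in hSKP2-KI replicates 1 to 4 and at 61.8, 108, 88.6 and 81.5 TPM in WT replicates 1 to 4. Its groups overlapped, since hSKP2-KI replicate 1 was below WT replicate 2, and hSKP2-KI replicate 2 was well above its group. The log2 fold change of Bgn was 0.81 (standard error 0.25, 95% interval 0.27 to 1.36, adjusted p = 0.0292 by limma). The call was lost after median-ratio scaling, with 0.55 (adjusted p = 0.166 by limma), and also without hSKP2-KI replicate 3, WT replicate 1, WT replicate 3 or WT replicate 4, with log2 fold changes of 0.80, 0.67, 0.84 and 0.80.

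Asporin (Aspn, Entrez 66695, chr13:49544443-49567565, plus strand), which binds collagen and TGF-beta and restrains the latter in cartilage, stood at 6.21, 8.44, 9.28 and 9.49 TPM in hSKP2-KI replicates 1 to 4 and at 1.76, 4.10, 4.56 and 4.14 TPM in WT replicates 1 to 4. WT replicate 1 was apart at the low end, and the groups did not overlap. The groups differed by 1.05 in log2 fold change (standard error 0.22, 95% interval 0.57 to 1.52, adjusted p = 0.00653 by limma), and 0.83 after median-ratio scaling (adjusted p = 0.0278 by limma). An exon of Aspn overlaps one of Cenpp on the minus strand, and the strand setting of the counting is not given in the sources used here. Cenpp itself was listed at no more than 0.152 TPM in any library.

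Osteoglycin (Ogn, Entrez 18295, chr13:49608015-49624501, plus strand), also called mimecan and found around collagen fibrils in many connective tissues, stood at 54.5, 63.3, 62.6 and 84.4 TPM in hSKP2-KI replicates 1 to 4 and at 23.4, 42.4, 41.6 and 39.2 TPM in WT replicates 1 to 4. The groups did not overlap. On the log2 scale the fold change was 0.85 (standard error 0.19, 95% interval 0.44 to 1.26, adjusted p = 0.00813 by limma). It was 0.59 after median-ratio scaling (adjusted p = 0.0430 by limma) and 0.62 after quantile normalization, where the call was lost (adjusted p = 0.0530 by limma).

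Prelp (Entrez 116847, chr1:133910304-133930102, minus strand), whose basic end binds heparan sulfate and which links basement membranes to the collagen beneath, differed less. It stood at 67.6, 94.2, 68.2 and 72.1 TPM in hSKP2-KI replicates 1 to 4 and at 50.8, 61.8, 51.2 and 52.4 TPM in WT replicates 1 to 4. In each genotype replicate 2 was the high one, and the groups did not overlap. The log2 fold change was 0.47 (standard error 0.11, 95% interval 0.22 to 0.72, adjusted p = 0.0126 by limma), or 0.23 more than the median gene. After median-ratio scaling it was 0.20, the groups overlapped and the call was lost (adjusted p = 0.238 by limma). An exon of Prelp overlaps the plus-strand transcript Gm15851, whose reads cannot be told apart from those of Prelp without strand.

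Podocan (Podn, Entrez 242608, chr4:108014793-108031954, minus strand), a member of the family that binds collagen and slows smooth muscle growth in vessels, did not pass the test. It stood at 6.21, 11.3, 7.19 and 8.51 TPM in hSKP2-KI replicates 1 to 4 and at 4.13, 6.86, 7.37 and 5.94 TPM in WT replicates 1 to 4. Only 2 of 4 hSKP2-KI mice were above all WT mice. The log2 fold change was 0.39 (standard error 0.19, 95% interval -0.03 to 0.81, adjusted p = 0.122 by limma), with an interval that includes 0.

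Osteomodulin (Omd, Entrez 27047, chr13:49582462-49592612, plus strand), a keratan sulfate proteoglycan of bone and dentin, was below 1 TPM in all 8 libraries and was not in the fit. It stood at 0.404, 0.423, 0.337 and 0.718 TPM in hSKP2-KI replicates 1 to 4 and at 0.266, 0.269, 0.288 and 0.323 TPM in WT replicates 1 to 4. The groups did not overlap, although hSKP2-KI replicate 3 and WT replicate 4 lay close together. The difference of log2(TPM + 1) was 0.19 (exact permutation test, two-sided, p = 0.0286, which no split of 4 against 4 mice can go below), and 0.11 after median-ratio scaling (two-sided exact permutation test, p = 0.114).

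**Figure D2:**
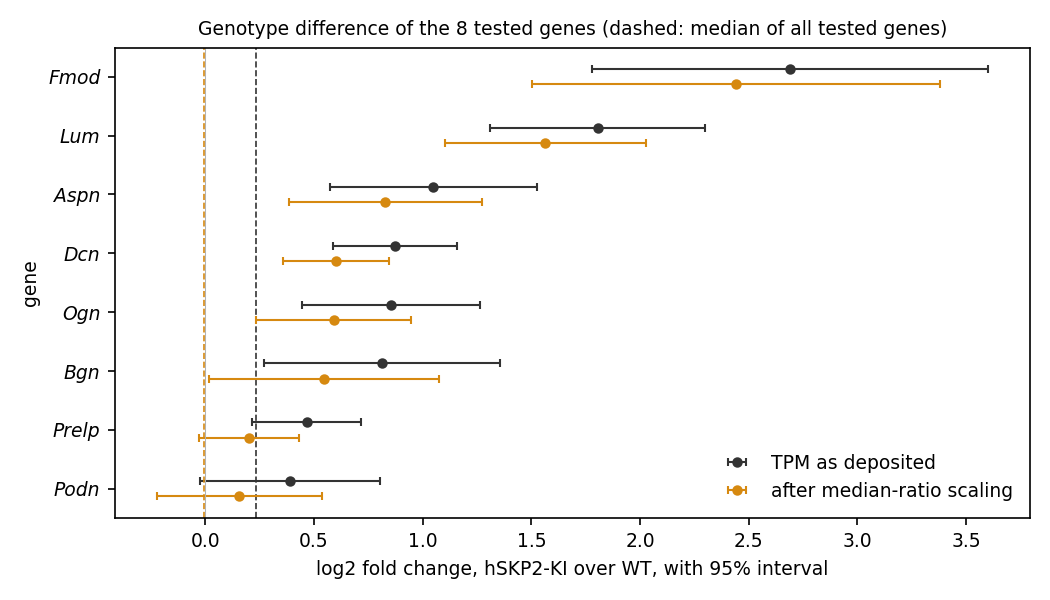
Log2 fold change of the 8 tested genes (hSKP2-KI over WT, log2(TPM + 1) scale) with 95% intervals, from the deposited TPM in black and after median-ratio scaling in orange. Dashed lines mark the median of all tested genes at 0.23 and -0.01. Fmod at 2.69 and Lum at 1.81 lie to the right of the others, and the interval of Podn spans 0 under both scalings.

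Mice ranked alike for most of the 9 genes. WT replicate 1 had the lowest WT level of all 9, and hSKP2-KI replicate 2 had the highest hSKP2-KI level of 6, namely Dcn, Lum, Bgn, Fmod, Prelp and Podn. The other 3, Ogn, Aspn and Omd, were highest in hSKP2-KI replicate 4. The lowest hSKP2-KI level of 6 genes was in hSKP2-KI replicate 1, and the highest WT level of 5 was in WT replicate 2. Fibroblast, smooth muscle, macrophage and mesothelial markers moved with these ranks, with WT replicate 1 the lowest WT mouse and hSKP2-KI replicate 2 the highest hSKP2-KI mouse. WT replicate 1 was also lowest for endothelial, ventral prostate, skeletal muscle and Schwann cell markers. Epithelial and adipocyte markers were lowest in WT replicate 3 and skeletal tissue markers in WT replicate 2. The other 7 lists were highest in hSKP2-KI replicates 1 or 4. The part of these cell types in the ranks was not tested. Without both WT replicate 1 and WT replicate 4, a choice made after the values were seen, 5 of the 8 tested genes were called higher, against 12.6% of all tested genes, with Bgn at 0.58 and Prelp at 0.41 no longer called.

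Some of these genes are neighbours in the genome, so their values can be set beside the genes around them. On chromosome 1, Prelp and Fmod lie between Optc and Btg2. Prelp was 0.47 and Fmod 2.69 higher on the log2(TPM + 1) scale, and Btg2, a growth-restraining gene outside the family, was 0.18 higher (adjusted p = 0.144 by limma). The level of Fmod in WT replicate 4 had no counterpart in Prelp, which was 52.4 TPM there and 50.8 to 61.8 TPM over all WT mice. On chromosome 10, Dcn and Lum are followed by the cornea and cartilage members Kera and Epyc. Kera was listed at 0 in 7 of the 8 libraries. Epyc was listed at 0.931 to 1.58 TPM in hSKP2-KI and at 0 to 0.739 TPM in WT prostates, too low for the fit.

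On chromosome 13, Ecm2, Aspn, Omd and Ogn lie in a row between Ippk and Nol8, and Cenpp spans the row on the other strand. Ecm2, a related leucine-rich repeat protein of adipose and female reproductive tissue, was 0.83 higher (adjusted p = 0.00710 by limma), beside 1.05 for Aspn and 0.85 for Ogn. The flanking Ippk, an inositol phosphate kinase, and Nol8, a nucleolar protein, had log2 fold changes of 0.15 (adjusted p = 0.328 by limma) and 0.03 (adjusted p = 0.871 by limma). All of Ecm2, Aspn, Omd and Ogn were highest in hSKP2-KI replicate 4, and so were Ippk and Nol8.

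**Figure D3:**
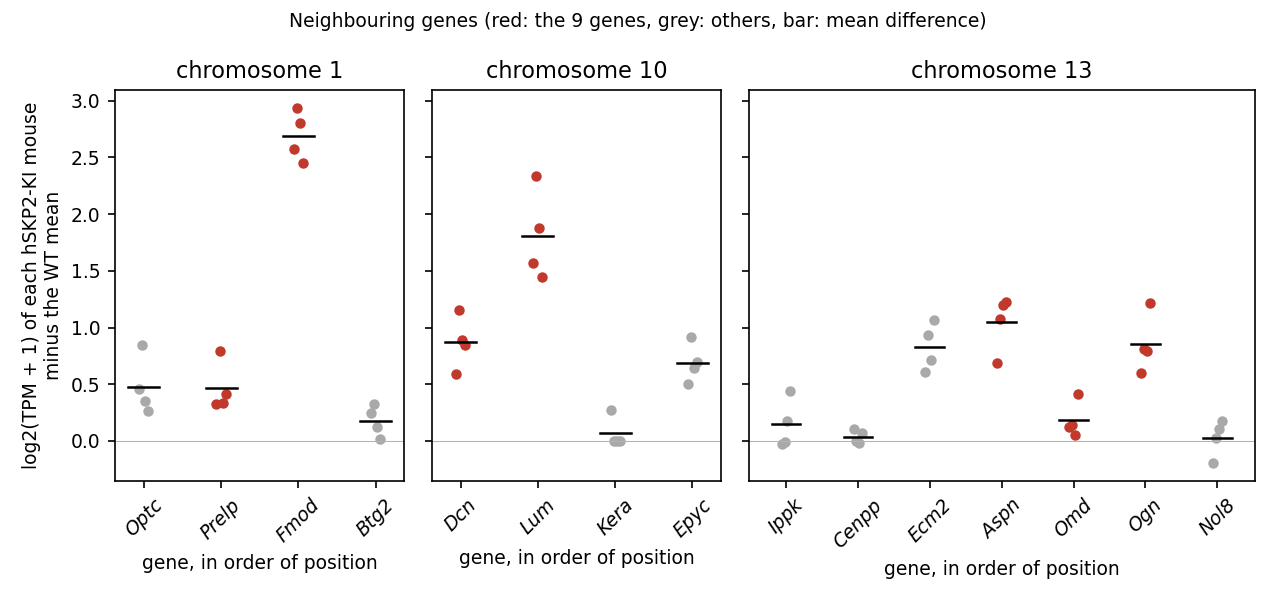
Each hSKP2-KI mouse (points) as log2(TPM + 1) minus the WT mean, with a bar at the mean difference, for the genes of the 3 neighbourhoods in order of position. The 9 proteoglycan genes are red and other genes grey. Fmod at 2.69 stands above its neighbours Prelp and Btg2, and Ecm2, Aspn and Ogn at 0.83 to 1.05 stand above Ippk and Nol8.

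Promoters are shown for Fmod and Prelp, which moved by unequal amounts, and for Aspn and Ogn, which moved by like amounts. Dcn and Lum on chromosome 10 also moved unequally, at 0.87 and 1.81, but had no promoter entry. The part of the promoters in these differences was not tested. They are given as the bases before the transcript start in RefSeq (GRCm38.p6). Sequences are given 5′ to 3′ on the strand of the gene. The windows are chr1:134037004-134037253 on the plus strand for Fmod, chr1:133921402-133921651 on the minus strand for Prelp, chr13:49544193-49544442 on the plus strand for Aspn and chr13:49607765-49608014 on the plus strand for Ogn. The Prelp window lies inside the span of the gene, whose first base on the minus strand is 133930102. It therefore precedes a transcript start within the gene and not its outermost start. Capitals mark matches on either strand to TATAAA (the TATA box core), GGGCGG (a GC box), TGANTCA (the AP-1 site), CAGAC (a SMAD-binding letter run) and the CArG box bound by serum response factor.
Fmod: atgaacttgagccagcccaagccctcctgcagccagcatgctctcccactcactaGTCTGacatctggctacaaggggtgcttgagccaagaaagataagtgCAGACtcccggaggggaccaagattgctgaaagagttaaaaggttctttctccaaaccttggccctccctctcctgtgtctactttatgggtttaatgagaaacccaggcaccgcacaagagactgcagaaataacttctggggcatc
Prelp: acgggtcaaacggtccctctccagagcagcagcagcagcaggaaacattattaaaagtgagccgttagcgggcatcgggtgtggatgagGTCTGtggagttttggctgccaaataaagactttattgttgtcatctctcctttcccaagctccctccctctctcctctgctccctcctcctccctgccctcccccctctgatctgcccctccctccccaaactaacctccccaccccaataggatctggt
Aspn: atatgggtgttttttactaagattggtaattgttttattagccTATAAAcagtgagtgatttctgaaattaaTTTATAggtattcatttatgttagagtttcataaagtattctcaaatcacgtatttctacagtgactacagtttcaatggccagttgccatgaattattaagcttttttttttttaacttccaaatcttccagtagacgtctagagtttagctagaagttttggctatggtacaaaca
Ogn: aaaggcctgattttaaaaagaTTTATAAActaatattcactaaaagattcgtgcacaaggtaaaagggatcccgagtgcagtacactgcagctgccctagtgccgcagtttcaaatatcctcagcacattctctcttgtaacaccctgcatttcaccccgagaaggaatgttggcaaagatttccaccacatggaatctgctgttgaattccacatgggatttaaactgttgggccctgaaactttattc
Fmod held CAGAC 2 times and Prelp held it 1 time, and neither held the other motifs. This run is common, being found in 42.2% of 32851 promoters of the same length. Aspn and Ogn each held TATAAA 2 times, on opposite strands, where 12.4% of promoters hold it, and in Ogn both matches overlap. Counted back from the transcript start, they lie at -229 to -222 in Ogn and at -207 to -202 and -178 to -173 in Aspn. The bases just after the Ogn start are in no transcript of the GENCODE annotation for that gene, so its start is less certain. The Aspn window was 30.0% G and C and the Ogn window 42.0%, against a median of 52.4% over all promoters, 51.2% for Fmod and 55.6% for Prelp.

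Promoters were found for 7 of the 9 genes in the table used, Dcn and Lum being the ones without an entry. Of the others, Bgn held GGGCGG 3 times, of which the last 2 matches overlap, Podn held it 2 times in 1 of its 2 windows, and Omd held none of the motifs. That GC box was in 32.7% of all promoters. The AP-1 site, found in 6.75% of promoters, and the CArG box, found in 1.47%, were in none of the windows. The E box CANNTG was also searched and is in 66.2% of promoters, so it is not marked.

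Fibroblast markers were themselves higher in hSKP2-KI prostates. Over 10 markers (Pdgfra, Pdgfrb, Col1a1, Col1a2, Col3a1, Dpt, Fbln1, Serpinf1, Mfap5 and Fap) the summed level was 369 to 817 TPM in hSKP2-KI and 201 to 294 TPM in WT prostates, and 8 of the 9 tested markers were called higher, where 32.7% of all tested genes were. After median-ratio scaling 2 of the 9 were called higher, against 6.92%. Their mean log2(TPM + 1) differed by 0.85 without overlap (exact permutation test, two-sided, p = 0.0286, and 0.0524 when adjusted over the 11 marker lists), and by 0.61 after median-ratio scaling. Each of the 9 genes was therefore also taken relative to the mean of these markers in the same library. The p-values of these 9 comparisons were not adjusted for their number, so none is counted as a call.

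Relative to the fibroblast markers, Fmod was 1.84 and Lum 0.96 higher on the log2 scale in hSKP2-KI prostates. Each had every hSKP2-KI mouse above every WT mouse (two-sided exact permutation test, unadjusted p = 0.0286 each). Only 0.252% of all tested genes were separated upward by this measure. For Fmod the separation was narrow, with WT replicate 4 at 0.49 and the lowest hSKP2-KI mouse at 0.50, and it was lost with a pseudocount of 0.1 (difference 1.95, two-sided exact permutation test, p = 0.0571). For Lum the values were -0.23, -0.44, -0.25 and -0.52 in hSKP2-KI replicates 1 to 4 and -1.44, -0.99, -1.54 and -1.31 in WT replicates 1 to 4. Against smooth muscle markers in place of fibroblast markers, Fmod was 1.95 and Lum 1.07 higher, again without overlap.

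The level of Dcn relative to the fibroblast markers differed by 0.03, of Ogn by 0.01, of Bgn by -0.03 and of Aspn by 0.20, with overlap of the groups in all 4 (two-sided exact permutation tests, p = 0.886, 1.00, 0.686 and 0.457). The value of Aspn rested on single mice, at 0.0637 without WT replicate 1, 0.0756 without hSKP2-KI replicate 4, 0.396 without hSKP2-KI replicate 2 and 0.309 without WT replicate 3. Dcn held the steadiest ratio among WT mice, at 4.32 to 4.39, and ranged from 4.06 to 4.56 among hSKP2-KI mice. Prelp was 0.38, Podn 0.46 and Omd 0.66 lower relative to these markers, each without overlap (two-sided exact permutation test, unadjusted p = 0.0286 each). Being separated downward was common, at 55.3% of all tested genes. Against smooth muscle markers the groups overlapped for Prelp and Podn, with differences of -0.27 and -0.35, and the value of Omd rests on TPM under 1, where the added 1 compresses differences.

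**Figure D4:**
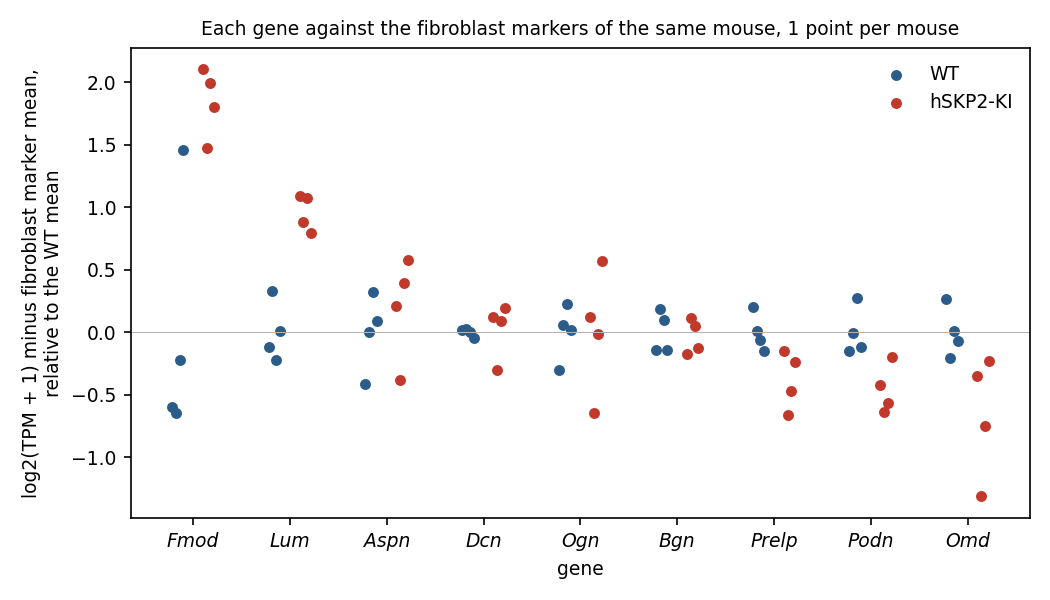
Log2(TPM + 1) of each gene minus the mean of 10 fibroblast markers in the same mouse, set to a WT mean of 0, 1 point per mouse (blue WT, red hSKP2-KI). Fmod and Lum lie above at 1.84 and 0.96, with the highest WT mouse of Fmod just under the lowest hSKP2-KI mouse, and Prelp, Podn and Omd lie below.

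The TPM ratio of a pair of genes within a library does not depend on the scaling of that library, and 6 pairs of the 9 genes were compared. The tests were run on differences of log2(TPM + 1), which the added 1 makes partly dependent on scale for low genes. The TPM ratio of Dcn to Lum was 23.3 to 35.9 in hSKP2-KI and 46.4 to 72.4 in WT prostates, without overlap. The log2 difference between genotypes was -0.93 (exact permutation test, two-sided, p = 0.0286, and 0.0571 when adjusted over the 6 pairs), which is the smallest adjusted p this family reached. Fmod to Prelp, the neighbours on chromosome 1, had a ratio of 0.632 to 0.856 in hSKP2-KI and 0.0715 to 0.463 in WT prostates, also without overlap (difference 2.22, exact permutation test, two-sided, p = 0.0286, adjusted to 0.0571).

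The ratio of Fmod to Lum overlapped, with WT replicate 4 above every hSKP2-KI mouse. It was 1.95 to 2.64 in hSKP2-KI prostates and 0.893, 0.604, 1.33 and 3.87 in WT replicates 1 to 4 (difference 0.88, exact permutation test, two-sided, p = 0.143, adjusted to 0.171). The difference was 1.37 without WT replicate 4 and 0.56 without WT replicate 2. The ratio of Dcn to Bgn, the chain-bearing class I pair, was 3.07 to 5.14 in hSKP2-KI and 3.68 to 4.61 in WT prostates (difference 0.06, two-sided exact permutation test, p = 0.771). For Ogn to Aspn the TPM ratio was 6.75 to 8.89 in hSKP2-KI and 9.13 to 13.3 in WT prostates without overlap, but on the log2(TPM + 1) scale the groups overlapped (difference -0.19, exact permutation test, two-sided, p = 0.143, adjusted to 0.171). For Ogn to Omd the log2 difference was 0.67 (exact permutation test, two-sided, p = 0.0286, adjusted to 0.0571), while the TPM ratios overlapped, at 118 to 186 in hSKP2-KI and 88.0 to 158 in WT prostates. With a pseudocount of 0.1 the difference was 0.35 for Ogn to Omd and -0.37 for Ogn to Aspn (exact permutation tests, two-sided, p adjusted to 0.206 and 0.0571).

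The partners of these proteins were described by the same fit. Over all tested genes it called 32.7% higher and 1.23% lower, and 6.92% higher after median-ratio scaling. Of 18 collagens and other fibril partners, 15 were higher and 0 lower, with a median log2 fold change of 0.88, and 4 were higher after median-ratio scaling. With the deposited TPM the largest was fibronectin (Fn1) at 1.34 (adjusted p = 0.00962 by limma). The smallest called was Col6a1, a chain of the beaded-filament collagen, at 0.59 (adjusted p = 0.0175 by limma). Dermatopontin (Dpt), which binds decorin, had a log2 fold change of 1.27 and Col14a1, a fibril-associated collagen that decorin binds, 1.01. Col6a3 was at 13.2 to 31.6 TPM in hSKP2-KI and 18.1 to 48.3 TPM in WT prostates (log2 fold change -0.45, adjusted p = 0.300 by limma). Col1a1, Col1a2, Col3a1 and Dpt are also among the fibroblast markers, so these counts are not separate from that list.

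Of 18 tested enzymes that build the sugar chains, 11 were higher and 0 lower, with a median of 0.36. After median-ratio scaling 3 were higher. The shares of all tested genes called higher were 32.7% and 6.92%. Those 3 were Dsel, an epimerase that makes dermatan sulfate, Csgalnact1, which starts chondroitin chains, and B4galt4, a galactosyltransferase of keratan sulfate. After median-ratio scaling their log2 fold changes were 1.00 (adjusted p = 0.00527 by limma), 0.69 and 0.47. With the deposited TPM they were 1.21 (adjusted p = 0.00141 by limma), 0.85 and 0.73. The smallest called with the deposited TPM was B3gat3, which completes the linkage to the core protein, at 0.29 (adjusted p = 0.0167 by limma). The level of Fam20b, the kinase of that linkage, was 96.3 to 97.8 TPM in hSKP2-KI and 77.5 to 102 TPM in WT prostates and was not called.

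Of 19 tested ligands and receptors, 15 were higher, against 32.7% of all tested genes, and 0 lower, with a median of 0.55. After median-ratio scaling 2 were higher, Met and Bmp4, against 6.92% of all tested genes. With the deposited TPM Met, a receptor tyrosine kinase that decorin binds, had the largest called difference at 1.10 (adjusted p = 0.000502 by limma). Tgfb3 was the smallest called at 0.40 (adjusted p = 0.0473 by limma). Egfr, another decorin-binding receptor, was 0.49 higher, and the biglycan receptor Tlr4 was 0.57 higher while Tlr2 was not called at 0.33. Ccn2, listed as Ctgf, overlapped between genotypes, at 43.0 to 83.3 TPM in hSKP2-KI and 8.26 to 72.2 TPM in WT prostates (log2 fold change 1.25, adjusted p = 0.0806 by limma). Of 8 tested proteases and their helpers that cut these proteins or collagen, 7 were higher, from Ctsk at 1.18 to Htra1 at 0.57, and 0 lower. The median of the 8 was 0.69, and 32.7% of all tested genes were higher. Mmp14 was the 1 of the 8 that was higher after median-ratio scaling, against 6.92% of all tested genes.

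Of 9 further family genes, 3 had enough transcript to be tested and all 3 were higher, Ecm2 at 0.83, Tsku, an inhibitor of TGF-beta and BMP signals, at 0.78 and Chad, a cartilage member, at 0.65. Ecm2 and Tsku were also higher after median-ratio scaling. The shares of all tested genes were 32.7% and, after that scaling, 6.92%. Optc, the eye member beside Prelp, was below the filter, at 0.884 to 1.81 TPM in hSKP2-KI and 0.235 to 0.757 TPM in WT prostates.

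**Figure D5:**
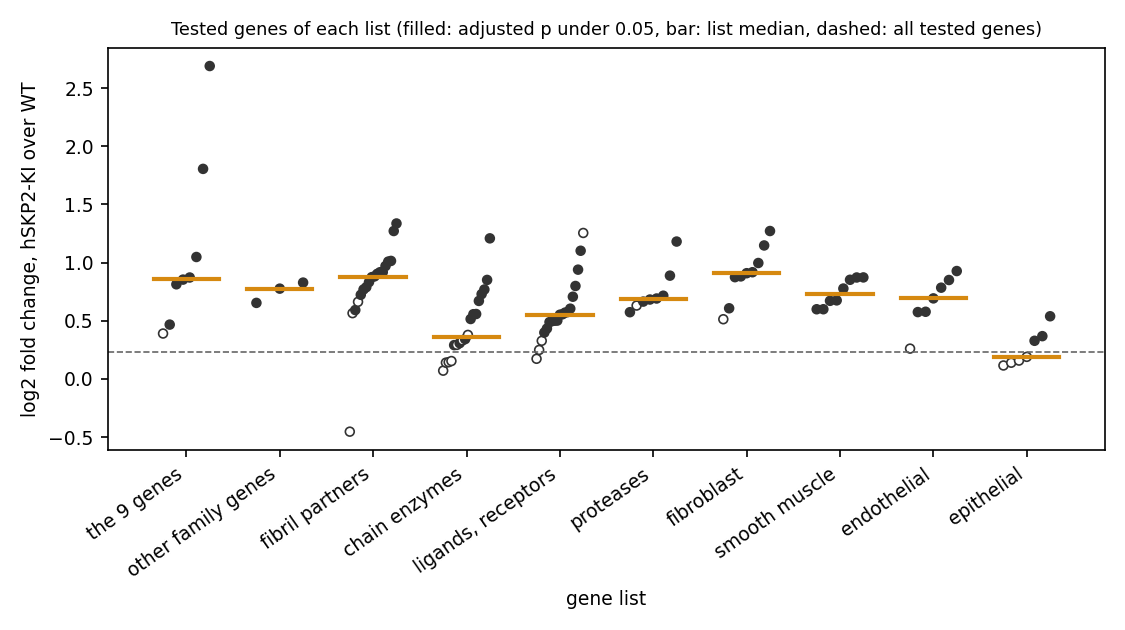
Log2 fold change (hSKP2-KI over WT) of the tested genes of each list, filled where the adjusted p was under 0.05, with an orange bar at the list median and a dashed line at the median of all tested genes, 0.23. The 8 tested of the 9 genes have a median of 0.86, close to 0.88 for fibril partners, and Fmod and Lum lie above every gene of the other lists shown.

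Markers of other cell types were measured in the same libraries. Mean log2(TPM + 1) was 0.74 higher for 8 smooth muscle markers, 0.67 higher for 7 endothelial markers, 0.26 higher for 7 epithelial markers and 0.94 lower for 7 ventral prostate genes (Pbsn among them), all without overlap (exact permutation tests, two-sided, p = 0.0286 each, adjusted to 0.0524). After median-ratio scaling these differences were 0.47, 0.44, -0.01 and -1.21. The summed levels were 3602 to 5466 against 2434 to 3086 TPM for smooth muscle, 50.7 to 83.8 against 31.5 to 42.0 TPM for endothelium and 2363 to 2948 against 2053 to 2245 TPM for epithelium, hSKP2-KI against WT. Macrophage markers were 0.92 and mesothelial markers 1.01 higher (two-sided exact permutation tests, p = 0.0571 and 0.0286, adjusted to 0.0898 and 0.0524). Their summed levels were 165 to 343 against 72.3 to 155 TPM and 24.3 to 50.4 against 6.96 to 15.2 TPM. Most of the mesothelial sum was Upk1b, at 20.9 to 43.8 against 6.33 to 13.3 TPM, and Upk3b and Lrrn4 were below the filter. Msln was at 2.08 to 7.77 against 0.0387 to 0.652 TPM. All 3 tested mesothelial markers were called higher, where 32.7% of all tested genes were. Their log2 fold changes were 2.09 for Msln, 1.57 for Upk1b and 0.56 for Wt1. After median-ratio scaling 2 of the 3, Msln and Upk1b, were called higher, against 6.92% of all tested genes. Markers of cartilage, bone and tendon, where several of the 9 proteins are abundant, differed by 0.07 with overlap (two-sided exact permutation test, p = 0.457), with summed levels of 69.1 to 118 against 74.3 to 203 TPM. The 2 of these 9 markers with enough transcript to be tested went opposite ways, with Ibsp, a bone matrix protein, at 19.6 to 53.8 against 24.5 to 161 TPM (log2 fold change -0.82, adjusted p = 0.232 by limma) and Sox9, a cartilage transcription factor also made in epithelia, called higher at 0.48 (adjusted p = 0.0216 by limma). Of the other 7, Acan and Bglap were listed at 0 in all 8 libraries. The part of these cell types in the proteoglycan values was not tested.

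Genes whose profile over the 8 libraries was most like that of the 8 tested genes were found by the root-mean-square difference of centred log2(TPM + 1). The nearest to their mean profile were Pcolce2 at 0.105, Pros1 at 0.106, Gas1 at 0.122, Colec12 at 0.129 and Prrx1 at 0.132. Pcolce2 is an enhancer of procollagen cleavage, Pros1 is protein S, Gas1 is a membrane protein of growth arrest, Colec12 is a scavenger receptor and Prrx1 is a mesenchymal transcription factor. Taken singly, Dcn was nearest to the receptor kinase Axl at 0.0286, Bgn to Col1a2 at 0.0502, Prelp to Sox4 at 0.050, Ogn to Dab1 at 0.0888, Podn to Tnfsf10 at 0.0967, Aspn to Fgl2 at 0.150 and Lum to the Wnt antagonist Sfrp4 at 0.159. Fmod had the largest distance, its nearest being the zinc transporter Tmem163 at 0.423. Profiles were centred but not scaled, so distances grow with the size of a gene's differences and do not compare likeness of shape between genes. Tmem163 was also higher in WT replicate 4, at 2.95 TPM, than in the other WT mice, at no more than 0.318 TPM, and its lowest hSKP2-KI value was 4.98 TPM.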

How the data were processed

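The authors sequenced poly-T selected mRNA from the ventral prostate of 4 hSKP2-KI and 4 WT mice, 1 library per mouse. Reads were trimmed and mapped in CLC software. The authors deposited TPM for 36333 genes, and per the submitters' processing notes the build was mm10 (GRCm38). The annotation, the strand setting and the handling of reads shared between genes are not given in the sources used here. TPM keeps no read counts, so depth is unknown and no count model was used. Every library summed to 1000000.

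Genes that reached 1 TPM in 4 or more of the 8 libraries were fitted as log2(TPM + 1) with limma 3.58.1 (R 4.3.3) with a mean-variance trend, and p-values were adjusted over all 13080 genes at a threshold of 0.05. The added 1 makes fold changes of low genes smaller than their TPM ratio. Single values were tested by exact permutation (two-sided, 70 assignments, lowest possible p 0.0286). For values relative to the fibroblast markers a limma fit over all genes had been planned, but subtracting 1 shared mean gives all genes a shared error, so the exact test replaced it. The fit was tested on simulated data. Figures were drawn with matplotlib 3.10.9.

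The members and gene lists were chosen with earlier results of these data known. Named genes were all 9 members, the largest, the smallest and up to 4 further genes of each list, the 5 nearest profiles, the nearest gene of each member, Skp2 and Pbsn, and the genes flanking a member were added after the values were seen. Gene positions and promoters came from RefSeq. Alternatives were another pseudocount, other filters, 3 other scalings, a replicate block, sample weights, a robust step and leaving out each mouse. The labels give no batch. They also name no pairing by replicate number, and the main fit takes the mice as unpaired.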

Additional observations from a re-analysis of the deposited data

Results flagged for a closer look

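In 18 groups of 4 mice, 1 for each of the 9 genes in each genotype, 4 held a mouse whose gap to its nearest neighbour was a large enough part of the range of the group to pass Dixon's test at 95%, where chance gives about 1 in 20 groups. Fmod in WT replicate 4 was 24.3 TPM, a gap of 0.872 of the WT range above the other WT mice. Among all tested genes, 0.459% stood high in WT replicate 4 by the same measure. Aspn in WT replicate 1 was 1.76 TPM, a gap of 0.834 below the other WT mice. Prelp was 94.2 TPM in hSKP2-KI replicate 2 and 61.8 TPM in WT replicate 2, gaps of 0.831 and 0.849 above the rest of each genotype. What set these mice apart was not tested.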

How the results depend on the processing

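TPM has a fixed total, and depth limits low genes such as Omd by an amount that cannot be given. Under the alternatives the directions of Dcn, Lum, Fmod, Ogn, Aspn, Bgn, Prelp and Podn were kept throughout, and the calls of Dcn, Lum, Fmod and Aspn were kept as well. The cause of the changes that follow was not tested.

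Genes called among all tested were 1461 with median-ratio scaling, 1326 with quantile normalization, 1321 without the 20 most abundant genes and 1740 without WT replicates 1 and 4, against 4433, and 2993 to 4677 with 1 mouse left out. In that order of the 3 scalings the log2 fold change was 0.55, 0.57 and 0.57 for Bgn and 0.20, 0.24 and 0.22 for Prelp, with both calls lost. Ogn lost its call with the last 2 scalings, at 0.62 each. Bgn also lost it with no filter and with the robust step, both at 0.81, and Bgn and Prelp lost it without WT replicates 1 and 4, at 0.58 and 0.41. Of the 8 tested genes 4 were called with quantile normalization and 4 without the 20 most abundant genes. Omd was not called with no filter, at 0.19, or with median-ratio scaling, at 0.11.

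With 1 mouse left out the log2 fold changes were 0.78 to 0.96 for Dcn, 1.63 to 1.98 for Lum, 0.56 to 0.98 for Bgn, 2.40 to 3.21 for Fmod, 0.66 to 0.94 for Ogn, 0.81 to 1.17 for Aspn, 0.36 to 0.53 for Prelp, 0.11 to 0.23 for Omd and 0.24 to 0.50 for Podn, and 6 to 7 of the 8 were called.

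With the replicate number as a block Podn was called at 0.39 (adjusted p = 0.0449 by limma), and 5128 genes were called in all. The block lowered the standard error of each tested member, least for Fmod, from 0.41 to 0.40. It went from 0.13 to 0.06 for Dcn, 0.22 to 0.13 for Lum, 0.25 to 0.10 for Bgn and 0.19 to 0.12 for Ogn. For Aspn it went from 0.22 to 0.12, for Prelp from 0.11 to 0.07 and for Podn from 0.19 to 0.13. Residual correlations of same-numbered mice were 0.22, -0.11, 0.17 and -0.01 across genes. The labels name no pairing, and these correlations cannot decide whether same-numbered mice shared a processing step. For the values relative to fibroblast markers a limma fit with the block was run, but it is not reported because the exact test replaced that fit.

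List calls in the order median-ratio, quantile and without the 20 most abundant genes were 3, 3 and 3 for chain enzymes, 4, 3 and 4 for fibril partners, 2, 1 and 2 for ligands and receptors and 1, 2 and 1 for proteases. In the same order 6.92%, 5.51% and 6.79% of all tested genes were called higher. Proteases had 4 with no filter, chain enzymes 6 and other family genes 1 with a mean TPM of at least 5, and other family genes 0 with quantile normalization, where 3 of its genes had an unadjusted p under 0.05. With 1 mouse left out the counts were 9 to 17 for fibril partners and 4 to 8 for proteases, both lowest without WT replicate 1.

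Relative to fibroblast markers, a pseudocount of 0.1 gave 1.95 for Fmod and -0.39 for Omd, no longer separated, and turned Dcn to -0.0423 and Ogn to -0.0452. Smooth muscle markers as reference gave -0.27 for Prelp and -0.35 for Podn, no longer separated, and turned Bgn to 0.0737. With 1 mouse left out Dcn ranged from -0.0318 to 0.134, turning without hSKP2-KI replicates 1 or 4 (-0.00571 and -0.0318), Bgn from -0.0829 to 0.0297, turning without hSKP2-KI replicate 1 or WT replicate 2 (0.0146 and 0.0297), and Ogn from -0.180 to 0.226, turning without hSKP2-KI replicates 1 or 4 or WT replicate 1 (-0.0307, -0.180 and -0.0936). The pair of Dcn and Bgn ranged from -0.0292 to 0.217, turning without hSKP2-KI replicates 1 or 4 (-0.0203 and -0.0292).

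Marker means with median-ratio scaling were 0.47 for smooth muscle and -1.21 for ventral prostate genes, and turned to -0.00687 for epithelial, -0.0257 for skeletal tissue and -0.18 for adipocyte markers. A pseudocount of 0.1 gave 0.22 for skeletal tissue and 1.75 for mesothelial markers. With 1 mouse left out skeletal muscle markers ranged from -0.34 to 0.83 and adipocyte markers from -0.49 to 0.42, turning without hSKP2-KI replicates 2 or 4 or WT replicate 3 (-0.0630, -0.220 and -0.489), the first turning without hSKP2-KI replicate 4.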

Other observations

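Skeletal muscle markers differed by 0.30, adipocyte markers by 0.07 and Schwann cell markers by 0.37 in mean log2(TPM + 1) between hSKP2-KI and WT prostates, with overlap of the groups in each (two-sided exact permutation tests, p = 0.600, 0.914 and 0.114). Their summed levels were 256 to 437 against 161 to 311 TPM, 240 to 1079 against 145 to 824 TPM and 21.7 to 29.5 against 14.9 to 22.8 TPM. Skeletal muscle, adipocyte, endothelial, skeletal tissue and ventral prostate markers were highest among hSKP2-KI mice in replicate 4, as were Ogn, Aspn and Omd, whereas Dcn, Lum, Bgn, Fmod, Prelp and Podn were highest in replicate 2. The part of those markers in the values of Ogn, Aspn and Omd was not tested.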
